A study of Mus musculus with 6 samples.

Results

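Transcripts that fibroblasts, pericytes and fibrosarcoma cells make in quantity were followed in TAMs (tumor-associated macrophages) sorted from mouse tumors. The 10 are Col1a1, Col1a2, Col3a1, Col5a2, Sparc, Postn, Dcn, Thy1, Pdgfrb and Acta2, a list given by name, and all 10 were found by Ensembl ID among the 55421 genes of the count table. The study compared TAMs of Pdcd1f/fLysMcre mice, in which Cre driven by the lysozyme (LysM) promoter targets the floxed Pdcd1 gene (encoding PD-1) in myeloid cells, with TAMs of Pdcd1f/f mice, which carry the same floxed gene and no Cre. Mice of both genotypes carried subcutaneous fibrosarcomas (M17 in the labels, MC17-51 in the study's methods) for 15 days and were 8 to 12 weeks old at implantation, and 3 libraries were made for each genotype. The labels give the cells as CD11b+F4/80+, and the study's methods describe, for TAMs of a related genotype, a sort after collagenase digestion for live CD45+CD11b+F4/80+Ly6G- cells, which fibroblasts that lack CD45 would not pass. Whether a library holds the cells of 1 animal or of several is not given in the sources used here, so the p-values below measure the spread between these libraries.

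Fibrillar collagens are built from chains wound into a triple helix. Type I collagen, the main fiber of skin, bone and scar, joins chains from Col1a1 and Col1a2, type III is made from Col3a1 alone, and type V, which Col5a2 contributes to, regulates how thick type I fibers grow. SPARC and periostin (Postn) are matricellular proteins, which bind the matrix and modify how cells respond to it, and decorin (Dcn) is a small proteoglycan that binds collagen fibrils. Thy1 is a surface glycoprotein of fibroblasts and of mouse T cells, Pdgfrb is a PDGF receptor of pericytes and fibroblasts, and Acta2 encodes the smooth muscle actin of myofibroblasts and mural cells. In a fibrosarcoma, a malignancy of mesenchymal cells, tumor cells and host stroma can both make these RNAs, and macrophages engulf dying cells and collagen fragments. In bulk RNA of a sorted population, fewer cells of a type and less RNA per cell cannot be told apart.

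The 4 collagen chains are shown first by a stretch of coding sequence, because they share a repeat rich in G and C. The triple helix is built from triplets that begin with glycine, and glycine codons read GGN. The longest unbroken run of codon triplets that begin with GGN held 338 triplets in Col1a1, 339 in Col1a2, 344 in Col3a1 and 339 in Col5a2, between 68% and 74.2% of the codons of each chain. The first 24 codons of each run are given from the GENCODE M21 transcripts on GRCm38, with the GGN codon that opens each triplet in capitals. They lie at chr11:94939451-94939921 (plus strand) for Col1a1, chr6:4512406-4515498 (plus strand) for Col1a2, chr1:45323762-45325395 (plus strand) for Col3a1 and chr1:45422422-45426996 (minus strand) for Col5a2, spread over 3, 3, 2 and 3 coding exons.
Col1a1: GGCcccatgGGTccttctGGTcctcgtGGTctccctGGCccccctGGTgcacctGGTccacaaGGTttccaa
Col1a2: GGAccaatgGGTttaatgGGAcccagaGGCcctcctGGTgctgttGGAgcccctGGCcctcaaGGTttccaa
Col3a1: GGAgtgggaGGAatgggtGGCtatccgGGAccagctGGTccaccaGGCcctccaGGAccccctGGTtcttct
Col5a2: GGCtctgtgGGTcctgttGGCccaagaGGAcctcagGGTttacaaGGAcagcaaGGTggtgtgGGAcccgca
The GC content of the whole runs was 65.2% in Col1a1, 62% in Col1a2, 60.9% in Col3a1 and 59.9% in Col5a2. Despite the repeat, words as long as a 42-base read were rarely shared with another gene. The share was 0% for Col1a1, Col5a2, Postn and Pdgfrb and at most 1.01%, for Col3a1, among the 10 genes, and in Col3a1 the shared words all lay in a microRNA gene annotated inside it. For Acta2 the share was 0.696%, all with an actin pseudogene, and the count covers exact matches only.

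Library totals ranged from 41833823 to 51417209 counts, and 3 counts in a library correspond to between 0.0583 and 0.0717 CPM (counts scaled to library total), which covers counting error only. The counted Pdcd1 transcript was present in both genotypes, with 10, 12 and 15 counts in Pdcd1f/f and 7, 16 and 11 in Pdcd1f/fLysMcre libraries, whereas Lyz2, the site of the Cre insertion, had at least 189889 counts in each Pdcd1f/f library and at most 503 in each Pdcd1f/fLysMcre library. All 10 macrophage markers examined were abundant, from a mean of 24.1 FPKM (CPM per kilobase of annotated exon) for Mertk to 1049 FPKM for C1qb. Pdcd1f/f replicate 1 and Pdcd1f/fLysMcre replicate 2 stood apart by the sign of their relation to base composition. Across 14454 genes, which are not independent, the deviation of these libraries from the mean of their genotype had a Spearman rho with GC content of -0.579 and -0.490, against 0.117 to 0.511 in the other 4. Each deviation is taken from a mean of 3 libraries, so a negative one goes with positive ones in the same genotype. Some positive values were as large, and the sign does not show that these 2 libraries are aberrant. Values without both are given for transcripts whose log2 fold change then changed its call or sign or moved by over 1.5 times.

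Of the 8 transcripts that could be tested, 1 differed between the genotypes, against 5.43% of all genes tested. All 10 were counted in both genotypes. Summed, they made up 69.7 to 75.7 CPM in the Pdcd1f/f libraries and 65.7 to 73.5 CPM in the Pdcd1f/fLysMcre libraries, 72.1 ± 3.14 against 68.7 ± 4.20 (SD, n = 3 each), which overlap. Per length of annotated exon, Dcn was the highest at a mean of 5.90 FPKM over the 6 libraries, followed by Col3a1 at 2.26 and Sparc at 1.20 FPKM. Dcn had a higher level than 57.8% of the 14469 genes tested, Col3a1 than 39.7% and Sparc than 31.1%. Acta2 (0.398 FPKM), Col5a2 (0.330), Col1a1 (0.268), Pdgfrb (0.205) and Col1a2 (0.168) followed, and Col1a1 was above Col5a2 in Pdcd1f/f (0.341 ± 0.0910 against 0.304 ± 0.0165 FPKM) and below it in Pdcd1f/fLysMcre libraries (0.196 ± 0.0751 against 0.356 ± 0.0226 FPKM; SD, n = 3 each). In Pdcd1f/f libraries Acta2 (0.352 ± 0.0907 FPKM), Col1a1 and Col5a2 did not differ beyond their spread. Thy1 and Postn were the lowest, at 0.0544 and 0.0143 FPKM. The union of annotated Col1a2 exons is long (12426 bases), so its level per length depends on the annotation.

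**Figure D1:**
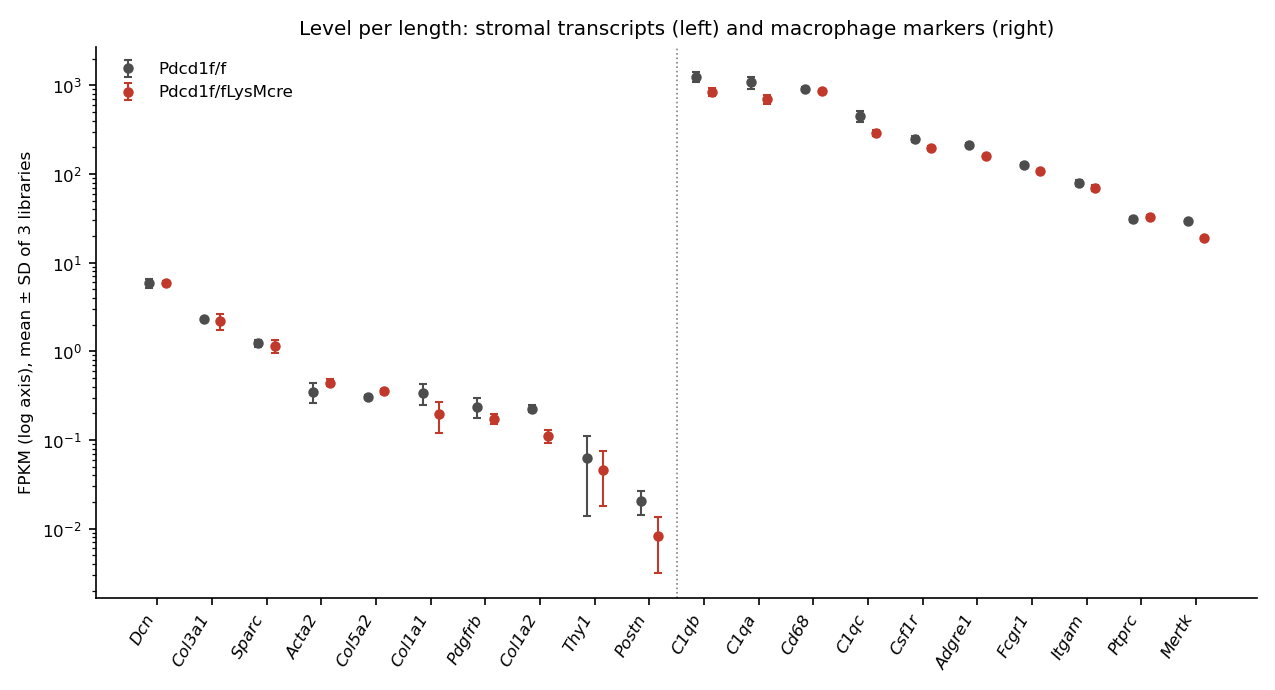
Level per length (FPKM, log axis) of the 10 stromal transcripts, left of the dotted line, and of 10 macrophage markers, right of it, as mean and SD of 3 libraries for Pdcd1f/f (grey) and Pdcd1f/fLysMcre (red). The highest stromal transcript, Dcn (5.90 FPKM), lies below the lowest macrophage marker, Mertk (24.1 FPKM).

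Genotypes were tested against each other by edgeR's quasi-likelihood method, with p-values adjusted by Benjamini-Hochberg over 14469 genes. Of the 10 transcripts, 8 passed the expression filter, all but Postn and Thy1. Of these 8, 1 (Col1a2) had an adjusted p-value under 0.05, against 5.43% of all genes tested (2.42% higher and 3.01% lower in Pdcd1f/fLysMcre). The libraries of the genotypes did not overlap for 2 of the 8, Col1a2 and Col5a2, against 27.5% of all genes tested, which is close to the share of the whole table. The call is of a single gene and is read below as that gene's result. The median log2 fold change of the 8 was -0.07 and that of all genes tested was -0.0026.

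Among the type I collagen chains, Col1a2 fell 2.01-fold. The gene lies on chromosome 6 of GRCm38 from 4504814 to 4541544 (ENSMUSG00000029661), and its normalized counts were 129, 121 and 146 in Pdcd1f/f and 69.4, 75.2 and 52.1 in Pdcd1f/fLysMcre libraries. The highest Pdcd1f/fLysMcre library was below the lowest Pdcd1f/f library. The means were 132 ± 12.7 and 65.6 ± 12.03 (SD, n = 3 each) and the log2 fold change (log2 FC) was -1.001 (standard error, s.e., 0.18, 95% interval -1.41 to -0.59, edgeR adjusted p = 0.0121). Its raw counts were 108 to 139 and 53 to 79. The adjusted p-value was under 0.05 in 14 of 16 alternative fits, with a log2 fold change from -1.13 to -0.87, and just above it without Pdcd1f/f replicate 3 (adjusted p = 0.055) and without Pdcd1f/fLysMcre replicate 1 (adjusted p = 0.0594, both from edgeR), while the range over the alternatives was 4.3e-05 to 0.0594.

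Col1a1, the partner chain, is on chromosome 11 from 94936224 to 94953042 (ENSMUSG00000001506). It had 73.3, 115 and 127 normalized counts in Pdcd1f/f and 36.1, 64.8 and 81.6 in Pdcd1f/fLysMcre libraries. The groups overlapped, because Pdcd1f/f replicate 1 was lower than Pdcd1f/fLysMcre replicate 3. The means were 105 ± 28.2 and 60.8 ± 23.0 (SD, n = 3 each), giving a log2 FC of -0.78 (s.e. 0.30, 95% interval -1.45 to -0.12, edgeR adjusted p = 0.145), which did not pass the threshold. Col1a1 transcripts are the richest in GC of the 10 (58.9%). Genes rich in GC were counted low in Pdcd1f/f replicate 1 and in Pdcd1f/fLysMcre replicate 2. The part of base composition in the Col1a1 difference was not tested. Without Pdcd1f/f replicate 1 the log2 FC was -1.003 (edgeR adjusted p = 0.0218). Without both of these libraries it was -1.05 (edgeR adjusted p = 0.0138). With GC and length offsets over all 6 libraries it was -0.60 (edgeR adjusted p = 0.110). Adding the replicate number as a block to these offsets gave -0.63 (edgeR adjusted p = 0.0377). The block alone gave -0.81 (edgeR adjusted p = 0.0305), and every gene with at least 1 count gave -0.78 (edgeR adjusted p = 0.00708). Leaving out other libraries gave -0.51 without Pdcd1f/fLysMcre replicate 1 (edgeR adjusted p = 0.347), -0.63 without Pdcd1f/f replicate 3 (edgeR adjusted p = 0.394) and -1.06 without Pdcd1f/fLysMcre replicate 3 (edgeR adjusted p = 0.0915). Within a library the chains did not keep a fixed ratio, with 56.8 to 95.4 Col1a1 counts per 100 Col1a2 counts in Pdcd1f/f and 52.0 to 157 in Pdcd1f/fLysMcre libraries.

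The other fibrillar chains did not pass the test. Col3a1, on chromosome 1 from 45311538 to 45349706 (ENSMUSG00000026043), had 1052, 1042 and 1119 normalized counts in Pdcd1f/f and 899, 911 and 1248 in Pdcd1f/fLysMcre libraries. Replicates 1 and 2 of Pdcd1f/fLysMcre were below all controls and replicate 3 was above them. The log2 FC was -0.07 (s.e. 0.12, edgeR adjusted p = 0.768), and the 95% interval of -0.34 to 0.20 leaves out a fall as large as the one fitted for Col1a2. Without Pdcd1f/fLysMcre replicate 3 it was -0.25 (edgeR adjusted p = 0.139), and without both libraries that stood apart by GC it was -0.0146 (edgeR adjusted p = 0.957). Col5a2 lies 24.6 kb from Col3a1 on the same chromosome (45374321 to 45503282, opposite strand, ENSMUSG00000026042). It had 138, 128 and 145 normalized counts in Pdcd1f/f and 155, 158 and 172 in Pdcd1f/fLysMcre libraries, so every Pdcd1f/fLysMcre library was higher. The difference was small, 1.18-fold, with a log2 FC of 0.24 (s.e. 0.13, 95% interval -0.05 to 0.54, edgeR adjusted p = 0.296), and none of the 16 alternative fits called it.

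**Figure D2:**
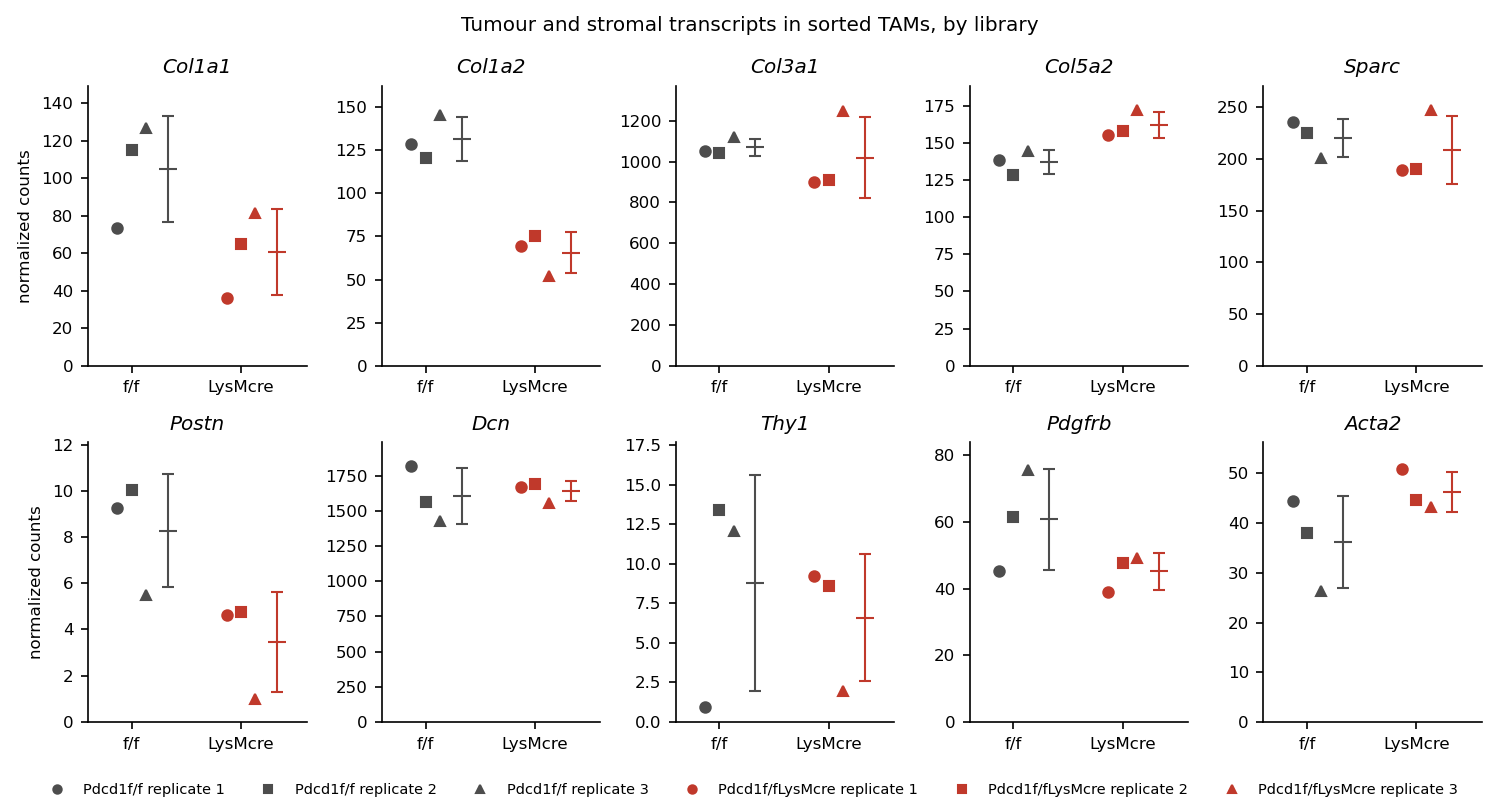
Normalized counts (raw counts divided by the deposited size factor of each library) of the 10 transcripts in the 3 Pdcd1f/f (grey) and 3 Pdcd1f/fLysMcre (red) libraries, with a marker shape for each replicate number and the mean and SD beside the points. Each axis starts at 0. The groups are apart for Col1a2 (121 to 146 against 52.1 to 75.2), Col5a2 (128 to 145 against 155 to 172) and Postn, which had at most 10 counts in a library.

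Set against Col3a1 within each library, a ratio that does not depend on how libraries are scaled, Col1a2 had 12.3, 11.6 and 13.01 counts per 100 Col3a1 counts in Pdcd1f/f and 7.72, 8.25 and 4.18 in Pdcd1f/fLysMcre libraries. Col5a2 ran the other way, with 13.1, 12.3 and 12.9 in Pdcd1f/f and 17.3, 17.3 and 13.8 in Pdcd1f/fLysMcre libraries. Of the 9 transcripts compared with Col3a1 in this way, these 2 did not overlap between the genotypes, against 8.86% of the 14468 other genes tested. For each of the 2 a two-sided exact permutation test gave p = 0.1, the smallest that 3 libraries against 3 allow, and no adjustment over the 9 ratios can bring it lower. The ratio of Sparc overlapped, with 17.9 to 22.4 counts per 100 Col3a1 counts in Pdcd1f/f and 19.8 to 20.99 in Pdcd1f/fLysMcre libraries.

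**Figure D3:**
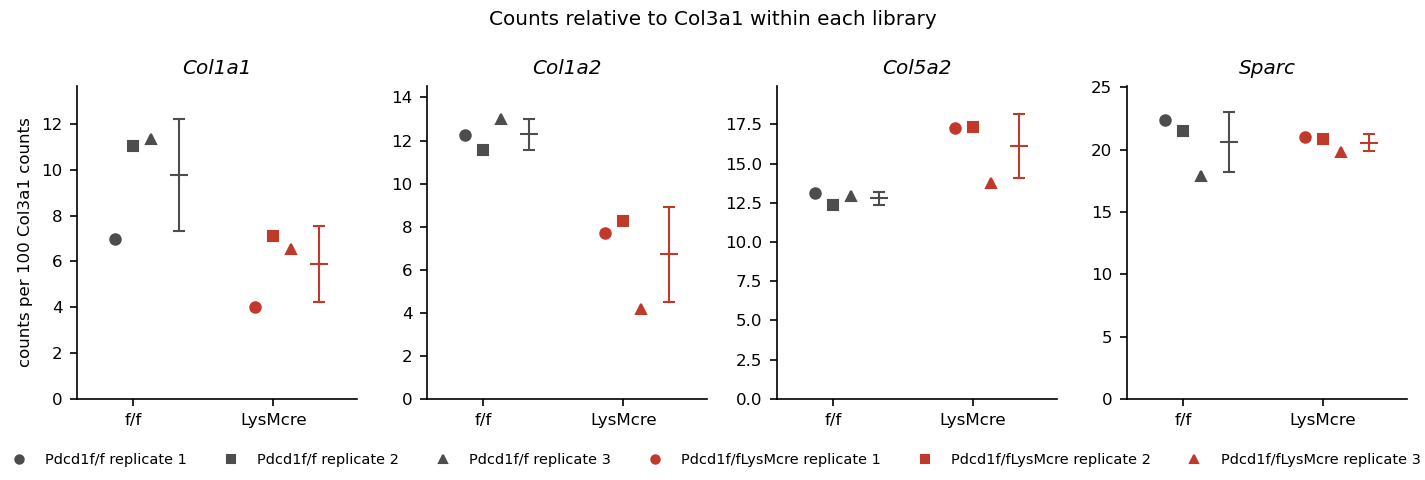
Counts of Col1a1, Col1a2, Col5a2 and Sparc per 100 Col3a1 counts in each of the 3 Pdcd1f/f (grey) and 3 Pdcd1f/fLysMcre (red) libraries, with mean and SD beside the points and axes from 0. Col1a2 fell from 11.6 to 13.01 in the controls to 4.18 to 8.25, with no overlap, while Sparc stayed between 17.9 and 22.4 in all 6 libraries.

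Of the matrix-binding proteins, Dcn, on chromosome 10 from 97479609 to 97518143 (ENSMUSG00000019929), took the largest part of the summed counts, between 43.6% and 53.5% in each library. Its normalized counts were 1821, 1566 and 1433 in Pdcd1f/f and 1674, 1694 and 1559 in Pdcd1f/fLysMcre libraries, with the Pdcd1f/fLysMcre libraries inside the range of the controls. The log2 FC was 0.03 (s.e. 0.09, 95% interval -0.17 to 0.24, edgeR adjusted p = 0.859). Dcn transcripts are poor in GC (37.4%), and the sign of this small difference turned to -0.09 with GC and length offsets, while without both libraries that stood apart by GC it was 0.11 (edgeR adjusted p = 0.298). Dcn lies on the chromosome of Lyz2, 19.8 Mb from it. Sparc, on chromosome 11 from 55394500 to 55423183 (ENSMUSG00000018593), had 236, 225 and 200 normalized counts in Pdcd1f/f and 189, 190 and 247 in Pdcd1f/fLysMcre libraries (log2 FC -0.08, s.e. 0.14, edgeR adjusted p = 0.780). Like Col3a1, it was highest of the 3 Pdcd1f/fLysMcre libraries in replicate 3, and without that library the log2 FC was -0.22 (edgeR adjusted p = 0.375). Without both libraries that stood apart by GC it was 0.0301 (edgeR adjusted p = 0.918). Postn, on chromosome 3 from 54361109 to 54391037 (ENSMUSG00000027750), had 10, 9 and 5 raw counts in Pdcd1f/f and 5, 5 and 1 in Pdcd1f/fLysMcre libraries, too few for the expression filter.

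Pdgfrb, on chromosome 18 from 61045150 to 61085061 (ENSMUSG00000024620), had 45.4, 61.5 and 75.6 normalized counts in Pdcd1f/f and 38.9, 47.6 and 49.2 in Pdcd1f/fLysMcre libraries, which overlap (log2 FC -0.42, s.e. 0.25, 95% interval -0.97 to 0.13, edgeR adjusted p = 0.326). Acta2, on chromosome 19 from 34241090 to 34255590 (ENSMUSG00000035783), had 44.5, 37.99 and 26.3 normalized counts in Pdcd1f/f and 50.9, 44.8 and 43.3 in Pdcd1f/fLysMcre libraries, which overlap too (log2 FC 0.35, s.e. 0.26, 95% interval -0.23 to 0.92, edgeR adjusted p = 0.440). The intervals reach a level of 0.512 times the control for Pdgfrb and of 1.90 times the control for Acta2, so the intervals include changes of that size. Without Pdcd1f/f replicate 3 the log2 FC was -0.24 for Pdgfrb (edgeR adjusted p = 0.740) and 0.16 for Acta2 (edgeR adjusted p = 0.825), and without Pdcd1f/f replicate 1 it was -0.61 and 0.52. Without both libraries that stood apart by GC it was -0.64 for Pdgfrb (edgeR adjusted p = 0.0974) and 0.55 for Acta2 (edgeR adjusted p = 0.244). Actb, the cytoplasmic actin, had a mean of 1653 FPKM against 0.398 FPKM for Acta2. Thy1, on chromosome 9 from 44043384 to 44048579 (ENSMUSG00000032011), had 1, 12 and 11 raw counts in Pdcd1f/f and 10, 9 and 2 in Pdcd1f/fLysMcre libraries. It did not pass the expression filter. Among T cell markers, Cd8b1 had at most 1 count, Cd8a 2 and Cd3e 11 in any library. Trac had 28 to 61 counts, Cd2 19 to 40, and Cd4, which some macrophages express too, 512 to 648. The part of T cells in the Thy1 counts was not tested.

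**Figure D4:**
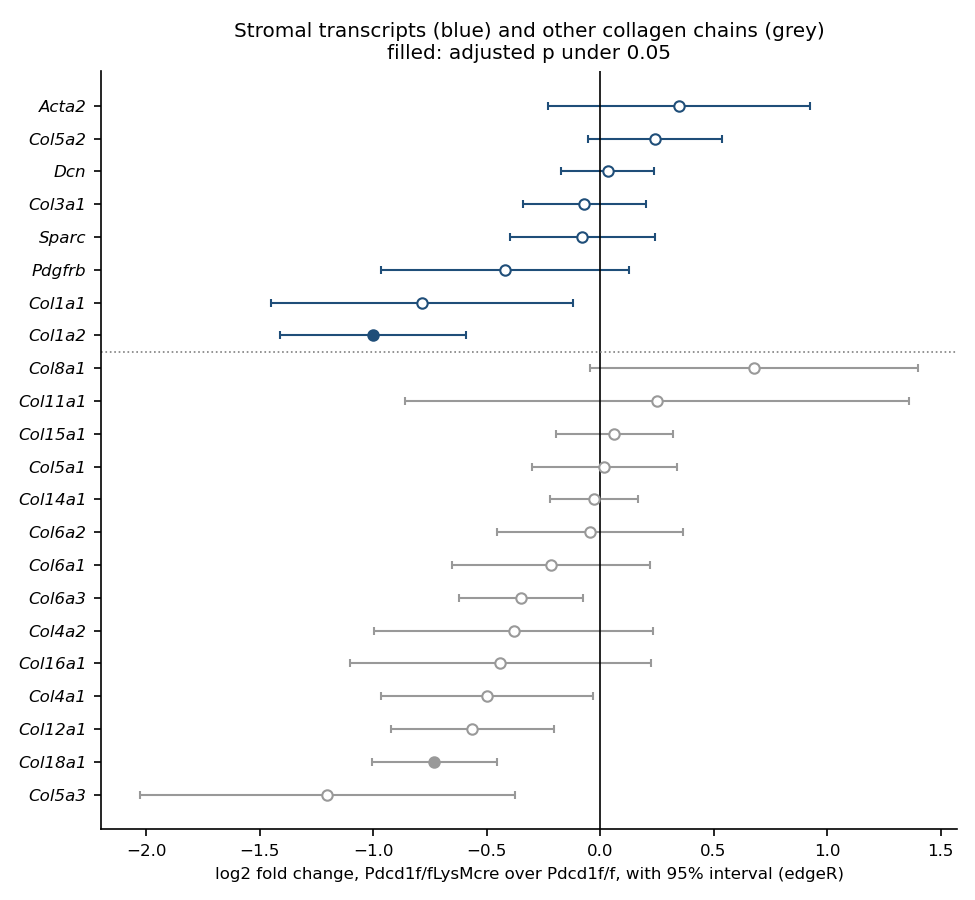
Log2 fold change (Pdcd1f/fLysMcre over Pdcd1f/f, 3 libraries each) with its 95% interval from edgeR for the 8 stromal transcripts tested (blue, above the dotted line) and for 14 other collagen chains (grey). Filled points, Col1a2 (-1.001) and Col18a1 (-0.73), had an adjusted p-value under 0.05.

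A wider set of 18 collagen chains, all tested, held 2 that fell, Col1a2 and Col18a1, and 0 that rose, against 3.01% lower and 2.42% higher of all genes tested. Without the 4 chains already described, 1 of 14 fell. Of the 18, 13 had a log2 fold change below 0 (median -0.28, against -0.0026 for all genes tested). Col18a1, the basement membrane collagen whose end is cleaved to endostatin, was the most highly counted collagen chain of the 18, with 3941 ± 650 normalized counts in Pdcd1f/f and 2371 ± 296 in Pdcd1f/fLysMcre libraries (± SD of 3 libraries, log2 FC -0.73, s.e. 0.12, edgeR adjusted p = 0.00801). Col3a1 was the next by counts. Of 18 genes for enzymes and chaperones that make collagen, 17 were tested and 1 passed the threshold, near the 5.43% of all genes tested. It was the lysyl hydroxylase gene Plod1, which fell (log2 FC -0.40, s.e. 0.10, edgeR adjusted p = 0.0420). The most abundant genes of that list by CPM, P4hb and Plod1, had means of 323 and 32.4 FPKM (P4ha1, at 46.5 FPKM, was above Plod1 per length), against 9.54 FPKM for Col18a1, the highest of the chains per length. Among 22 other matrix and matricellular genes, 15 were tested and 0 passed the threshold in edgeR, with 5 at an unadjusted p under 0.05, and 3 passed in DESeq2 (12.6% of all genes tested by it) and 0 in limma. The most abundant of these by CPM were Thbs1 (762 FPKM) and Tgfbi (972 FPKM).

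The fibroblast list gave calls in both directions. Of its 16 genes 11 were tested, 1 rose and 2 fell, against 2.42% higher and 3.01% lower of all genes tested, and 1 of the 2 is Col1a2, already described. Fap, a protease of activated fibroblasts, fell, with 188 ± 30.3 normalized counts in Pdcd1f/f and 118 ± 10.2 in Pdcd1f/fLysMcre libraries (± SD of 3 libraries, log2 FC -0.67, s.e. 0.16, edgeR adjusted p = 0.0390) and passed the threshold in 2 of the 6 fits that each left out a library, those without Pdcd1f/f replicate 1 or 3. Plod1 also passed in 2, those without Pdcd1f/f replicate 1 or Pdcd1f/fLysMcre replicate 3, and Col18a1 in 5, all but the one without Pdcd1f/fLysMcre replicate 1. Pdpn, which activated macrophages express as well, rose (log2 FC 0.56, s.e. 0.07, edgeR adjusted p = 0.00163). Pdpn (348 CPM) and Dcn (34.4 CPM) were the most abundant of the list. The summed level of the list was 326 to 374 CPM in Pdcd1f/f and 458 to 503 CPM in Pdcd1f/fLysMcre libraries, most of it Pdpn. Some fibroblast genes were at or near 0, with no count of Tcf21 in any library and at most 3 of Dpt and Cxcl12. Lum, which is often made with Dcn, had 0, 4 and 0 counts in Pdcd1f/f and 13, 17 and 8 in Pdcd1f/fLysMcre libraries. Tcf21, Dpt, Cxcl12 and Lum did not pass the expression filter, so no difference between the genotypes was tested for them. Prrx1, a mesenchymal transcription factor, had a log2 FC of 0.28 (s.e. 0.15, edgeR adjusted p = 0.281), with 400 to 740 counts in a library.

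Markers of other cells were examined beside these values. For smooth muscle cells and pericytes, 5 of 12 markers were tested and 0 passed the threshold in edgeR, DESeq2 or limma, with 0 at an unadjusted p under 0.05, the summed level was 49.9 to 63.2 CPM in Pdcd1f/f and 47.8 to 68.0 CPM in Pdcd1f/fLysMcre libraries, and nearly all of it was Cspg4 (55.4 CPM), followed by Pdgfrb (1.12 CPM). Myh11 and Cnn1 had at most 4 and 6 counts in a library. For endothelial cells, 6 of 9 were tested and 1, Pecam1, fell, against 3.01% lower of all genes tested (log2 FC -0.62, s.e. 0.09, edgeR adjusted p = 0.00340), the summed level was 42.4 to 44.8 CPM in Pdcd1f/f and 34.8 to 36.7 CPM in Pdcd1f/fLysMcre libraries, and Tek and Cldn5 had at most 4 and 9 counts. Kdr, the second most abundant of the list, had 624 to 780 counts in a library (log2 FC 0.02, edgeR adjusted p = 0.917). Cdh5 had 151 to 181 (log2 FC -0.009, edgeR adjusted p = 0.972) and Vwf 65 to 112 (log2 FC -0.03). Egfl7 and Emcn, also tested, had a log2 FC of -0.14 and 0.02. The lower summed level of the endothelial list was thus largely the fall of Pecam1. Skeletal muscle markers, led by Mylpf and Ckm, summed to at most 2.14 CPM, B cell markers, led by Cd79b and Ms4a1, to 4.47 CPM, and NK cell markers, led by Gzma and Klrb1c, to 0.908 CPM in any library. Adipocyte markers summed to at most 0.0418 CPM, from 1 count each of Adipoq and Plin1. Keratinocyte and epithelial markers, led by Cdh1 and Krt18, summed to 7.97 to 9.95 CPM. Dendritic cell markers, led by Ccr7 and Zbtb46, summed to 4.73 to 7.64 CPM and T cell markers, led by Cd4 and Trac, to 12.8 to 15.6 CPM. Neutrophil markers summed to 34.7 to 46.2 CPM, nearly all of it S100a8 and S100a9. The rest of the neutrophil list was low, with at most 3 counts of Ly6g and of Camp in any library, 1 of Elane, 6 of Mpo, 9 of Ngp and 21 of Ltf. edgeR tested 3 of 6 skeletal muscle, 1 of 5 B cell, 1 of 5 NK cell and 0 of 4 adipocyte markers. It also tested 3 of 6 keratinocyte and epithelial, 3 of 5 dendritic cell, 4 of 11 T cell and 2 of 8 neutrophil markers. In these 8 lists 0 markers passed the threshold, against 5.43% of all genes in edgeR, 12.6% in DESeq2 and 4.66% in limma. The few markers tested limit what 0 calls can show, and the adipocyte list could give no call in edgeR. An unadjusted edgeR p under 0.05 was found for 2 dendritic cell markers, 1 B cell marker and 0 of the others. Of 10 macrophage markers, 6 fell (Adgre1, Csf1r, C1qa, C1qb, C1qc and Mertk) and 0 rose, against 3.01% lower of all genes tested. The list was chosen with earlier results of these data known, and the study had reported lower Mertk, so this count cannot show an excess. The summed level of the 10 was 7335 to 8530 CPM in Pdcd1f/f and 5957 to 6497 CPM in Pdcd1f/fLysMcre libraries. Mertk passed the threshold in all 6 fits that each left out a library, Adgre1 and C1qc in 4, C1qa and C1qb in 3 and Csf1r in 2. The calls of these other 5 were lost without Pdcd1f/f replicate 2 and without Pdcd1f/fLysMcre replicate 1, those of C1qa, C1qb and Csf1r also without Pdcd1f/fLysMcre replicate 2, and that of Csf1r also without Pdcd1f/f replicate 3. The part of these shifts in the fall of Col1a2 was not tested.

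Of 16 genes whose products bind, take up or digest collagen, 15 were tested and 3 passed the threshold in edgeR, against 5.43% of all genes tested, while DESeq2 called 6, against 12.6%, and limma 3, against 4.66%. Mrc1, the mannose receptor that also internalizes collagen, fell (log2 FC -0.31, s.e. 0.07, edgeR adjusted p = 0.0219) and the scavenger receptor gene Stab1 too (log2 FC -0.71, s.e. 0.11, edgeR adjusted p = 0.00496), whereas the scavenger receptor gene Cd36 rose (log2 FC 0.94, s.e. 0.10, edgeR adjusted p = 4.9e-04). With 1 library left out, Stab1 and Cd36 passed in 6 of 6 fits and Mrc1 in 3, and the call of Mrc1 was lost without Pdcd1f/f replicate 2, Pdcd1f/fLysMcre replicate 1 or Pdcd1f/fLysMcre replicate 3. The most abundant by CPM were the lysosomal proteases Ctsb and Ctsl, at 1055 and 408 FPKM. Of the PDGF ligands and receptors, 5 of 6 were tested and 0 passed the threshold in edgeR, with 1 at an unadjusted p under 0.05, 1 called by DESeq2 and 0 by limma, and the ligand gene Pdgfc was close to it (log2 fold change -0.33, edgeR adjusted p = 0.0504). The most abundant by CPM were Pdgfa (12.2 FPKM) and Pdgfb, which encodes a ligand of the Pdgfrb product and had a mean of 33.2 FPKM against 0.205 FPKM for Pdgfrb.

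The 5 genes outside the list whose level followed the mean standardized profile of the 8 tested transcripts most closely over the 6 libraries were Ripor2, Scmh1, Car9, Zfp78 and Gm36266, with Pearson's r between 0.970 and 0.990. The 8 transcripts themselves had r between -0.289 (Acta2) and 0.916 (Sparc) with that mean profile. All 5 had an adjusted p-value of 0.579 or more from edgeR. With 6 libraries and 14469 genes such values are a description of these libraries only.

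The 250 bases before the RefSeq transcription start are shown for Col1a2, which fell, and Col3a1, which did not pass the test, since the ratio of these chains did not overlap between the genotypes. They were read from a table of RefSeq starts on GRCm38.p6, plus strand, which gave a window for 5 of the 9 genes looked up, Pdgfrb left aside (Col1a2, Col3a1, Postn, Sparc and Acta2). Capitals mark the letters CCAAT and TATAAA, searched on both strands together with GGGCGG.
Col1a2, chr6:4505368-4505617: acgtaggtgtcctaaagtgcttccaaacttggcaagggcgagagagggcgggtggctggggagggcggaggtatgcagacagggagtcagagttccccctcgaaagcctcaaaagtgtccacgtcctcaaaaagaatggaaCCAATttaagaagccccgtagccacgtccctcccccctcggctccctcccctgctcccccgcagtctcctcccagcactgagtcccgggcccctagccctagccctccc
Col3a1, chr1:45311288-45311537: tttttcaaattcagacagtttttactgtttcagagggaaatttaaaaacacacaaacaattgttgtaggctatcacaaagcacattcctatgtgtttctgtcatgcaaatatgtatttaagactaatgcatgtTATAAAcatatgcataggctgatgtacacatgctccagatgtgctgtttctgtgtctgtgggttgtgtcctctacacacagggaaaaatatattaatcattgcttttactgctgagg
The Col1a2 window lies inside the gene as annotated by Ensembl (4504814 to 4541544), which starts upstream of the RefSeq start. The Col3a1 window ends just before the Ensembl start of its gene (45311538). The windows differ in base composition, with 62% GC for Col1a2 and 35.2% for Col3a1, against a median of 52.4% over 32851 windows. The Col1a2 window held 1 CCAAT, 109 bases before the start, and 2 GGGCGG, and the Col3a1 window held 1 TATAAA, 117 bases before the start. CCAAT occurred in 33.8%, TATAAA in 12.4% and GGGCGG in 32.7% of all windows of this length. A match describes the letters in these windows only.

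Calls of the 8 transcripts under the 16 alternative fits are read against the share of all genes that each fit called. This share was 5.4% with RLE size factors, 5.58% with library size alone, 7.32% with every gene that had at least 1 count, 6.2% with at least 10 counts in every library, 12.6% with DESeq2 and 4.66% with limma-trend. It was 7.1% with the replicate number as a block, 19% with GC and length offsets, 19.8% with the block and these offsets together, and 26.2% without both libraries that stood apart by GC. Leaving out Pdcd1f/f replicates 1, 2 and 3 in turn gave 21.6%, 1.51% and 2.38%, and leaving out Pdcd1f/fLysMcre replicates 1, 2 and 3 gave 1.51%, 2.5% and 3.56%. Col1a1 was called by 5 of the 16, in 3 of which the share was 19.8% or more, and the other 6 transcripts tested by 0.

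**Figure D5:**
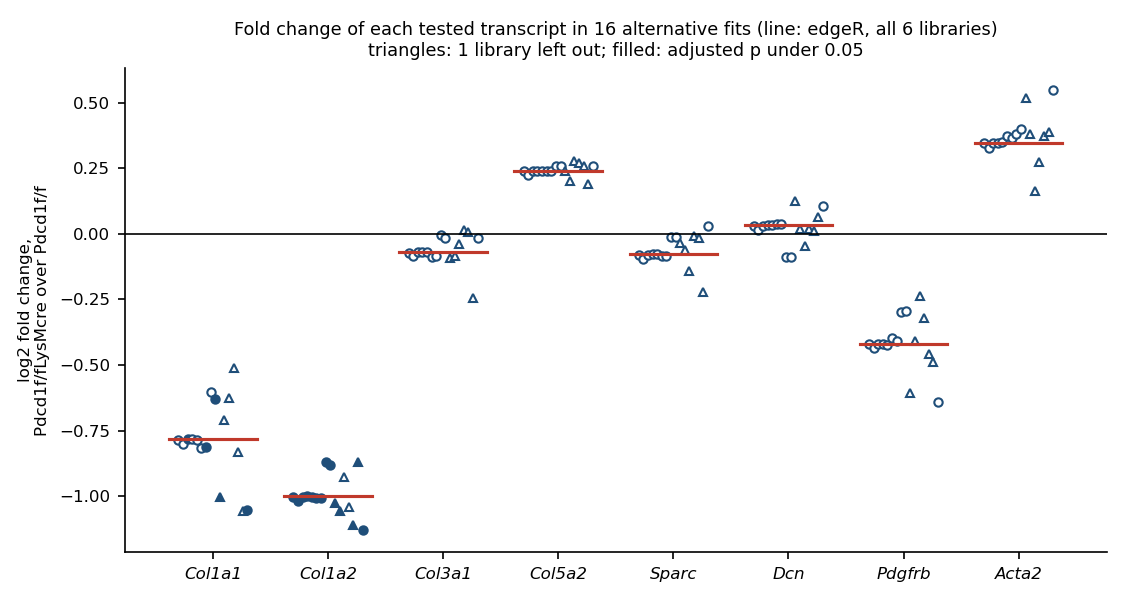
Log2 fold change (Pdcd1f/fLysMcre over Pdcd1f/f) of the 8 tested transcripts in 16 alternative fits, with triangles for fits that left out 1 library, filled points where the adjusted p-value was under 0.05 and a red line at the value with all 6 libraries. Col1a2 stayed between -1.13 and -0.87, and Col3a1, Sparc and Dcn scattered around 0.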

How the data were processed

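RNA of sorted TAMs was sequenced as stranded polyA libraries with paired-end 42-nt reads. The authors removed adapters with Cutadapt (2.5), aligned reads to GRCm38 with STAR (2.7.3a), counted them on Ensembl genes with featureCounts (Subread 1.6.2) and deposited the raw counts. Strand setting and treatment of multi-mapped reads are not given in the sources used here. A second table deposited by the authors holds a normalized signal for 16552 genes, the raw count over the DESeq2 size factor of its library. Normalized counts, CPM and FPKM (union of GENCODE M21 exons) were computed from the raw counts.

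Genotypes and replicate numbers came from the labels. Raw counts of all genes were compared with edgeR (4.0.16, R 4.3.3), using filterByExpr (minimum count 10, minimum total 15), TMM, robust glmQLFit and the two-sided glmQLFTest, with Benjamini-Hochberg adjustment. An adjusted p-value under 0.05 counted as past the threshold, and a standard error is the absolute log2 FC over the square root of F. Single ratios were compared by a two-sided exact permutation test (scipy 1.17.1). Scripts were tested on simulated data.

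The alternatives were RLE size factors, library size alone, every gene with at least 1 count, at least 10 counts in every library, DESeq2 (1.42.0), limma-trend (limma 3.58.1, log2(value + 1)) on that second table, a block for replicate number, loess offsets (span 0.5) for GC content and gene length (alone and together with the block), leaving out 1 library in turn, and Pdcd1f/f replicate 1 with Pdcd1f/fLysMcre replicate 2 left out. The 10 transcripts and the marker lists were chosen with earlier results of these data known, so a count of calls in a list cannot show an excess. Named were the 10 transcripts, the genes of each list past the threshold and the 2 most abundant by CPM, and the 5 most alike in profile. Other genes were named after their values were seen.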

Additional observations from a re-analysis of the deposited data

How the results depend on the processing

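The number of genes past the threshold was 786 with all 6 libraries, and it was 1951 with every gene that had at least 1 count, 1533 with DESeq2, 2741 with offsets for GC content and length without the block, 2856 with these offsets and the block, and 3757 without Pdcd1f/f replicate 1 and Pdcd1f/fLysMcre replicate 2. Leaving out 1 library at a time gave 222 to 3181 genes, with the most without Pdcd1f/f replicate 1. Among the 8 transcripts tested, 1 passed with all libraries and 0 to 2 when 1 was left out, with 0 without Pdcd1f/f replicate 3 or Pdcd1f/fLysMcre replicate 1 and 2 without Pdcd1f/f replicate 1. It was 2 (Col1a2 and Col1a1) with every gene that had at least 1 count, with the replicate block, with the offsets and the block, and without both libraries that stood apart by GC. Same-numbered libraries had deviations correlated at -0.0132, -0.0970 and 0.220 over 14469 genes, and differently numbered ones at -0.254 to 0.235. The deviations also follow GC content, so these correlations cannot tell whether same-numbered samples share more than a number. The replicate block gave 1027 genes and a Col1a1 log2 fold change of -0.81 (edgeR adjusted p = 0.0305).

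Among the 8 transcripts, signs turned only for differences near 0. The log2 FC of Col3a1 was 0.0138 without Pdcd1f/fLysMcre replicate 1 and 0.0052 without replicate 2 (range -0.2463 to 0.0138 with 1 library left out), that of Sparc 0.0301 without both libraries that stood apart by GC (range -0.2208 to -0.0096 with 1 library left out), and that of Dcn -0.0886 with the offsets, -0.0885 with the offsets and the block, and -0.0450 without Pdcd1f/f replicate 3 (range -0.0450 to 0.1240). The cause was not tested. Col1a2 kept its sign in 16 of 16 alternatives. Postn and Thy1 had at most 12 counts in a library and did not pass filterByExpr with all 6 libraries. All 10 transcripts were tested with every gene that had at least 1 count and with limma-trend, and Postn and Thy1 were not called. In some fits that left out libraries, such as that without Pdcd1f/f replicate 1, 9 of the 10 were tested.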
